A study of Mus musculus with 9 samples.

Results

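The enzymes that write and erase marks on histones and DNA were followed in mouse bone marrow-derived macrophages, the adherent phagocytes that grow out of marrow cells under macrophage growth factor. Members were taken by gene symbol alone: every gene whose symbol starts with Kdm, Hdac, Dnmt, Tet, Ezh, Kmt, Kat or Sirt followed by a digit, or with Setd. That gave 71 of the 16200 genes in the table. Wild-type marrow cells had been grown for 6 days with supernatant of L929 cells, a fibroblast line that secretes the growth factor. Afterwards 3 libraries were made from untreated cells, 3 from cells given IL-4 and 3 from cells given IL-27. The stated exposures were 20 ng/ml for 12 h with IL-4 and 100 ng/ml for 6 h with IL-27. One protocol text covers all samples and leaves unsaid if IL-4 was also given to the IL-27 cultures, so cytokine, dose and time cannot be told apart in a comparison of both cytokine groups. The labels name replicate experiments but no separate animals, so the p-values speak of the spread among the libraries only, and part of it may be technical.

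Histone lysine acetyltransferases add acetyl groups that open chromatin, and the zinc-dependent histone deacetylases (HDACs) and the NAD-dependent sirtuins remove them. Lysine methyltransferases and demethylases act on named positions: methylation of histone H3 lysine 4 (H3K4) marks promoters and enhancers, while that of lysine 9 (H3K9) and lysine 27 (H3K27) is linked to silencing. Dnmt enzymes methylate cytosine, and Tet dioxygenases oxidise the methyl group as a step towards its removal. In macrophages such enzymes have been studied as parts of the response to cytokines, Kdm6b (Jmjd3), which removes H3K27 methylation, in particular for IL-4. All values here are RNA levels. No histone mark, DNA methylation or protein was measured.

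Promoter sequence is shown for 4 members described further on: Dnmt1 and Ezh2, higher after IL-4, Setd7, lower after IL-4, and Hdac4, higher after IL-27. Ezh2 and Setd7 were also lower after IL-27. The 4 are examples and do not represent the members, most of whose windows held no motif. Each line gives the 250 bases before a RefSeq transcript start, 5′ to 3′ on the gene's strand, in build GRCm38.p6. The letters searched for were a STAT motif, TTCNNNGAA, and its form with 1 base more between its arms, bound by the transcription factors that IL-4 and IL-27 receptors activate, and the E2F motifs TTTCGCGC and TTTGGCGC, bound by regulators of DNA replication genes. Both strands were searched, and capitals mark a match. The lines read as follows.
Dnmt1, chr9:20952624-20952873, minus strand: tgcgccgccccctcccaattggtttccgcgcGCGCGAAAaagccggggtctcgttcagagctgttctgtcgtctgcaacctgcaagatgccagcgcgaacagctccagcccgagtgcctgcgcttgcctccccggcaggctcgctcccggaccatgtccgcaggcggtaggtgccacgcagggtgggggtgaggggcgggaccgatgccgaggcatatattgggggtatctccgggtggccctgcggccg
Ezh2, chr6:47595031-47595280, minus strand: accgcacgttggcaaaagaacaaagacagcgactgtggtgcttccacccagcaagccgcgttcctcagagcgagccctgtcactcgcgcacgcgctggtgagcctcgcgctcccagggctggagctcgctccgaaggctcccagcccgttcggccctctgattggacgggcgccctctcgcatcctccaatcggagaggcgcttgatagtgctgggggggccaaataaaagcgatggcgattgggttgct
Setd7, chr3:51560824-51561073, minus strand: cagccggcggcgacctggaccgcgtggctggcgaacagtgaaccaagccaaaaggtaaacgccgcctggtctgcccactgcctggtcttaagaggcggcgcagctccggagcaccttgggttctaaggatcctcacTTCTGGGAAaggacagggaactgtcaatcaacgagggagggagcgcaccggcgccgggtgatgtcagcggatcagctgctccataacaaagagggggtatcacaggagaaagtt
Hdac4, chr1:92180342-92180591, minus strand: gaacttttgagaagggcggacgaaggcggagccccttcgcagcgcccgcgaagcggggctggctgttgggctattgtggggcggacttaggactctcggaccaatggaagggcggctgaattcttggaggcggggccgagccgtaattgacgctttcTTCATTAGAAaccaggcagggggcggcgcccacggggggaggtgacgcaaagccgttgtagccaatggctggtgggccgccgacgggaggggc
Dnmt1 had 2 further windows in the table, both without any of the motifs, and the other 3 genes had 1 window each. In the Dnmt1 window shown, the capitals are TTTCGCGC on the opposite strand, beginning 219 bases before the start. In Setd7 they are TTCNNNGAA, 114 bases before it, and in Hdac4 the longer STAT form, 93 bases before it. The Ezh2 window held none of the 4 motifs.

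Of the 71 members, 59 had a promoter in the RefSeq table, with 85 windows between them. Their median GC content was 61.6%, against 52.4% over all 32851 windows of the table. The observed-to-expected CpG ratio passed 0.6 in 71.76% of member windows and in 33.95% of all windows. All windows cover 27025 genes, more than the 16200 counted here, so they include genes not measured in these cells. Member shares were not set against those of measured genes alone. TTCNNNGAA occurred in 7 member windows, of 6 genes (Dnmt3l, Hdac7, Kdm3a, Kmt2d, Setd7 and Sirt7), which is 8.24% against 7.02% of all windows. The longer form occurred in 2 member windows, of Hdac4 and Sirt6, or 2.35% against 5.85%. The Dnmt1 window shown was the single member window with TTTCGCGC, which 0.256% of all windows held, and none held TTTGGCGC, found in 0.417%. A match is a string of letters and not a measured binding site.

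The 9 libraries held between 34577188 and 37951827 counts. Untreated replicate 2 and IL-4 replicate 1 stood apart from the others. Over the genes, the chi-square per gene between libraries of a group was 91.7 to 115.6 in pairs holding either of them and 5.43 to 8.86 in the other pairs. Each library's departure from its group mean was computed on log2 CPM, counts scaled to library size with edgeR's TMM factors. Over the 62 members above 5 CPM, the departures of these 2 libraries correlated at r = 0.91, and they followed transcript GC content, with r = 0.70 in the first and 0.78 in the second. In the IL-27 libraries that correlation lay between -0.14 and 0.11. Departures are taken within a group, so a GC-linked shift shared by all 3 libraries of a group would not show in them. The part of GC content in the differences between groups was not tested. GC-poor members such as Kdm7a and Sirt1 were low in both libraries and GC-rich members such as Hdac5 and Sirt6 were high in both. The correlations are descriptions across genes of the same libraries, and their points share library preparation and depth.

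**Figure D1:**
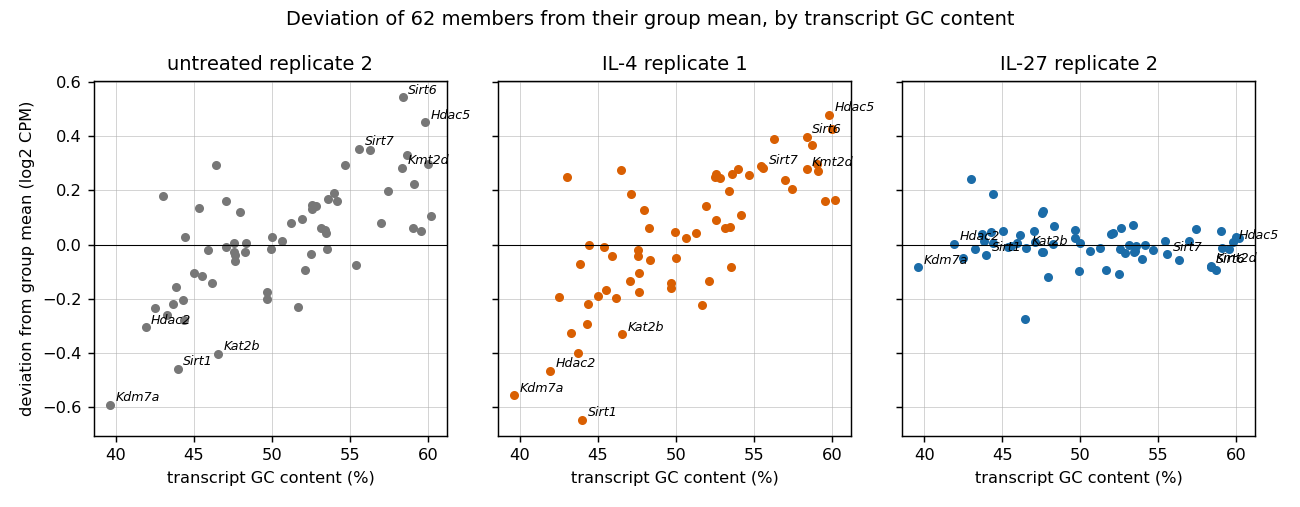
Departure of 62 members from their group mean (vertical axis, log2 CPM) against GC content of the gene's longest transcript (horizontal axis, percent) in untreated replicate 2, IL-4 replicate 1 and IL-27 replicate 2, with 1 point per gene. The points climb from lower left to upper right in untreated replicate 2 (r = 0.70) and IL-4 replicate 1 (r = 0.78) and stay near 0 in IL-27 replicate 2.

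The cells carried macrophage markers: all 7 of the listed genes were expressed, with a summed level of 22743 to 31423 CPM in untreated, 14446 to 18047 in IL-4 and 24053 to 26113 in IL-27 libraries. Fibroblast markers (6 genes, Col1a1 and Dcn among them, 1 of them under 1 CPM) summed to 680 to 772, 508 to 713 and 1044 to 1306 CPM in the same order, so they were highest with IL-27. T cell markers summed to at most 12.2 CPM and B cell markers to at most 3.55 CPM in any library. The part of the fibroblast signal in the IL-27 results was not tested. In bulk RNA, fewer cells of a kind and less RNA per cell cannot be told apart.

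Between genes, levels were compared on the deposited FPKM scale (fragments per kilobase of gene, scaled to the size of the library). The most abundant member was Sirt2, a mostly cytoplasmic deacetylase known for acting on tubulin, at a mean of 56.2 FPKM over the 9 libraries. Setd3, which methylates a histidine of actin, followed at 39.6 FPKM, then Sirt7, a nucleolar sirtuin, at 32.7, Dnmt3a at 32.6, Kmt5a at 31.1, Hdac5 at 27.3 and Dnmt1 at 26.7. The median tested member stood at 7.01 FPKM, close to the 6.32 of all genes tested. Classes were set by the start of the symbol. Summed over a class in untreated cells, the 20 lysine methyltransferases by symbol reached 209 FPKM, of which Setd3 gave 38.8. The 18 demethylases reached 126 FPKM, the 7 sirtuins 115, the 11 zinc-dependent HDACs 99.2, the 8 acetyltransferases 76.2 and the 7 Dnmt and Tet genes 70.2.

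**Figure D2:**
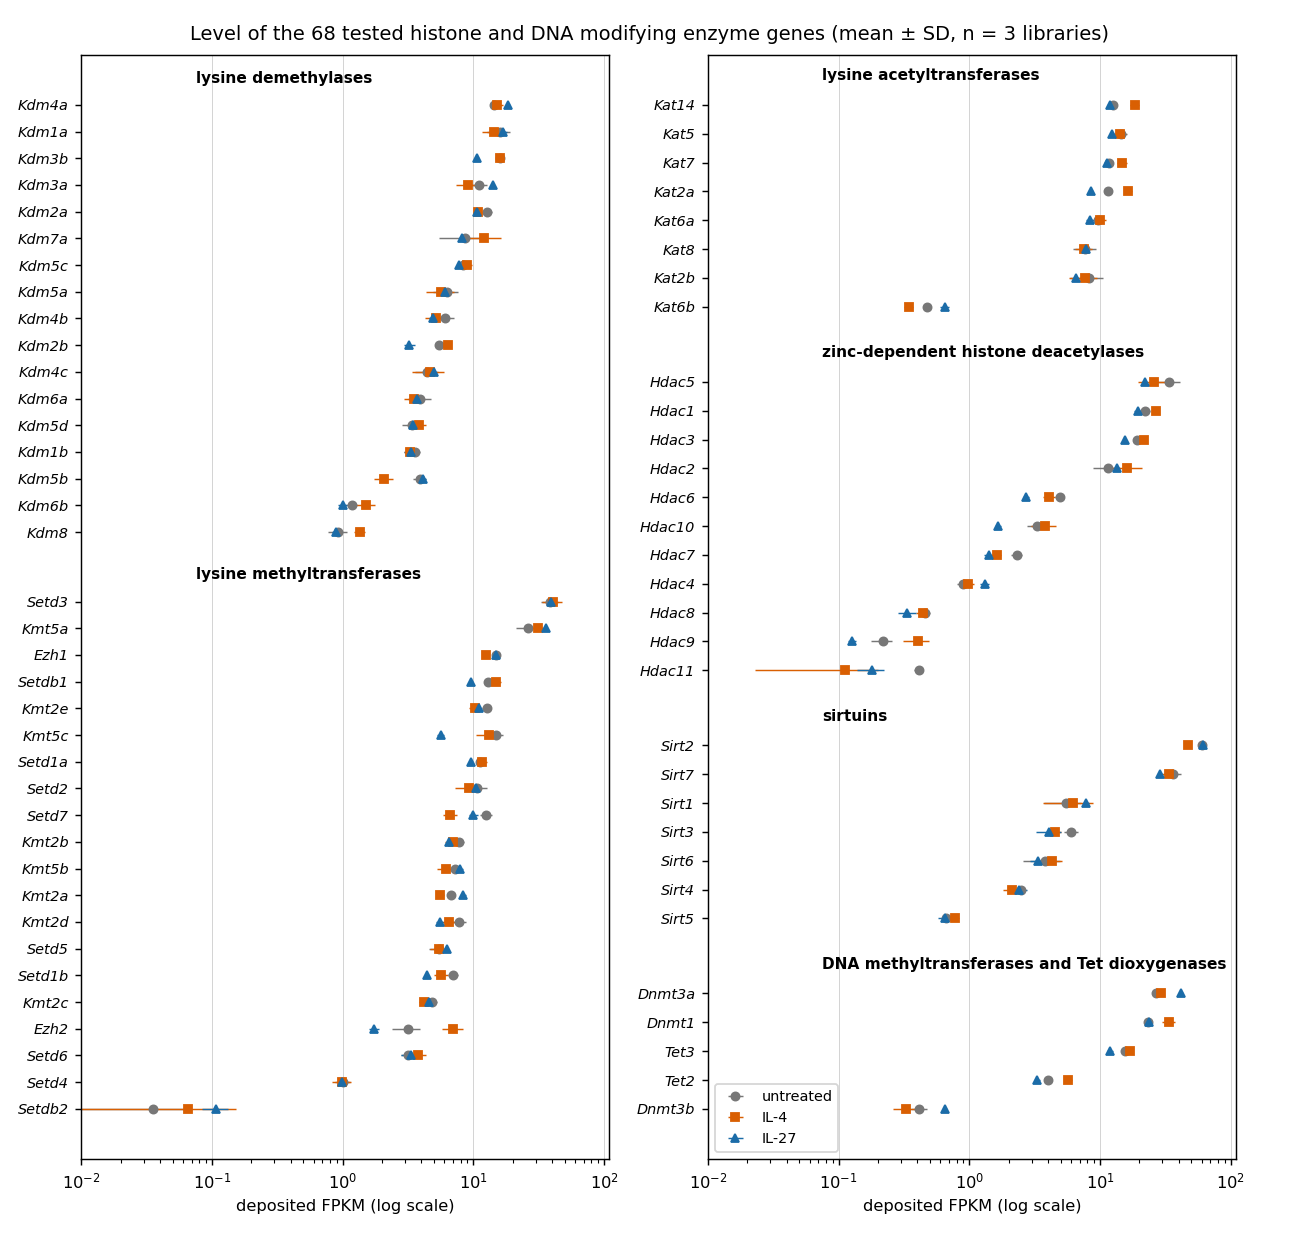
Mean FPKM (horizontal axis, log scale) of the 68 tested members, grouped by enzyme class and ordered by level, with the SD over 3 libraries as bars and 1 symbol per group. Members spread from Setdb2 at 0.0693 FPKM to Sirt2 at 56.2 FPKM, and for most of them the 3 group symbols lie close together compared with that range.

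Class by class, the DNA methyltransferases split into 2 abundant genes and a rare one: Dnmt1 and Dnmt3a against Dnmt3b at 0.463 FPKM. Among the dioxygenases, Tet3 stood at 14.8 FPKM and Tet2 at 4.34. Of the class I HDACs, Hdac1 (22.8 FPKM), Hdac3 (18.8) and Hdac2 (13.7) were well expressed. The class IIa genes ranged from Hdac5 at 27.3 down to Hdac9 at 0.249 FPKM. Ezh1, the H3K27 methyltransferase of resting cells, averaged 14.2 FPKM and its paralog Ezh2 3.97 FPKM. Per gene length, the level of Kat6b (0.488 FPKM), Hdac4 (1.06) and Hdac9 rests on long deposited lengths of 37946, 22138 and 21627 bases, against a median of 5739.5 bases for tested members. The filter on low counts left out 3 members, Dnmt3l, Kdm4d and Tet1, which reached at most 0.323 CPM in any library. Setdb2 was tested at 0.0293 to 0.474 CPM.

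Compared with untreated cells, 7 of the 68 tested members rose with IL-4 and 13 fell, and 48 were not called. Calls required an adjusted p under 0.05 in edgeR's quasi-likelihood test, with Benjamini-Hochberg adjustment over all 12587 genes. Called members named below were picked without overlap between groups, so lack of overlap adds no support to a call. How many of all genes lack overlap was not counted. The share called among members was 29.4%, against 25% of all genes tested (12.9% higher and 12.0% lower), which is close to the background. The members that rose were Ezh2, Hdac9, Kat14, Dnmt1, Kat2a, Tet2 and Kat7. Those that fell were Setd7, Kdm5b, Kat6b, Hdac7, Hdac11, Sirt2, Kmt2a, Kmt2c, Kmt2e, Kmt5b, Ezh1, Kdm2a and Kdm3a. Their median log2 change was -0.05 over the 68 and -0.01 over all genes. With a further requirement of 1.5-fold, 2 higher and 3 lower members were left, and 15.9% of all genes.

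Ezh2, the catalytic subunit of Polycomb repressive complex 2 (PRC2), which methylates H3K27, had the largest rise with IL-4. It measured 16.4, 11.3 and 14.2 CPM in untreated replicates 1 to 3 and 25.8, 33.7 and 31.3 CPM in IL-4 replicates 1 to 3. All 3 IL-4 libraries lay above all 3 untreated ones, a 2.17-fold rise (log2 1.11 ± 0.16 SE, adjusted p = 6.93e-04). Hdac9, a class IIa deacetylase, read 5.39, 4.31 and 4.38 CPM untreated and 7.28, 10.2 and 7.84 CPM with IL-4. These groups did not overlap either, and the fold was 1.80 (log2 0.85 ± 0.18, adjusted p = 0.00645). Ezh1 went the other way, from 62.2, 67.1 and 61.1 CPM to 52.9, 50.2 and 51.0 CPM with IL-4, without overlap (log2 -0.30 ± 0.08, adjusted p = 0.0192). The Ezh1 call was lost without IL-4 replicate 2 (adjusted p = 0.0644) or replicate 3 (0.0661).

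Dnmt1, the maintenance methyltransferase that copies methylation onto newly made DNA, measured 142, 168 and 134 CPM untreated and 250.2, 188 and 186 CPM with IL-4. The IL-4 libraries were all higher, most of all replicate 1, for a 1.40-fold rise (log2 0.49 ± 0.13, adjusted p = 0.0212). That call was lost without untreated replicate 1 (adjusted p = 0.0732) or 3 (0.0806). Tet2 read 37.7, 42.5 and 36.2 CPM untreated against 53.4, 53.5 and 54.4 CPM with IL-4, which was 1.38-fold (log2 0.47 ± 0.09, adjusted p = 0.00443). Its IL-4 libraries were nearly equal and above every untreated one. Tet3 (189.8 ± 5.70 SD untreated, 198 ± 13.3 with IL-4, n = 3 each) and Dnmt3a (666 ± 37.7 and 705 ± 63.1 CPM) overlapped between these groups and were not called.

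Of the 8 acetyltransferases, 3 rose with IL-4 and 1 fell, beside 12.9% and 12.0% of all genes tested. Kat14, a subunit of the ATAC acetyltransferase complex, went from 47.2, 49.6 and 46.4 CPM to 77.2, 60.0 and 65.5 CPM (log2 0.50 ± 0.11, adjusted p = 0.00677). Kat2a (Gcn5), the acetyltransferase of the SAGA and ATAC complexes, read 35.2, 43.1 and 34.7 CPM untreated and 60.1, 48.0 and 48.8 CPM with IL-4 (log2 0.47 ± 0.12, adjusted p = 0.0186). In both genes IL-4 replicate 1 was the highest library and the groups did not overlap. Kat7 (Hbo1), known for acetylating H3 lysine 14, rose from 72.6 ± 1.29 to 88.5 ± 2.62 CPM (SD, n = 3 each, log2 0.29 ± 0.08, adjusted p = 0.0208). Kat6b (Morf) fell from 17.5, 19.7 and 17.3 CPM to 13.9, 11.4 and 13.0 CPM (log2 -0.51 ± 0.12, adjusted p = 0.0106). The calls of Kat2a and Kat7 were lost without untreated replicate 1 (adjusted p = 0.0714 and 0.0689) or 3 (0.0721 and 0.0726), and that of Kat7 also without IL-4 replicate 2 (0.0654) or 3 (0.0702).

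Among the genes that IL-4 lowered, Setd7 and Kdm5b had the smallest p. Setd7, which places a single methyl group on H3K4 and on several proteins other than histones, fell from 96.9, 89.8 and 94.4 CPM to 44.7, 50.2 and 49.7 CPM. Every IL-4 library was far below every untreated one, a 1.95-fold drop (log2 -0.96 ± 0.09, adjusted p = 7.73e-05). Kdm5b, an H3K4 demethylase, fell by nearly the same factor, from 31.8, 29.0 and 28.8 to 13.5, 16.0 and 16.7 CPM (log2 -0.95 ± 0.11, adjusted p = 1.87e-04). Its groups were as clearly separated. Sirt2 dropped from 153, 182 and 154 to 133, 120.3 and 116 CPM (log2 -0.40 ± 0.09, adjusted p = 0.0103), without overlap. Neither Setd7, Kdm5b nor Sirt2 lost its call when any 1 of the 9 libraries was left out.

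Smaller IL-4 declines included 3 genes with a Kmt2 symbol. Kmt2e fell from 116, 114 and 118 CPM to 88.9, 89.5 and 96.8 CPM (log2 -0.34 ± 0.08, adjusted p = 0.00868), Kmt2a (Mll1) from 120.4 ± 4.07 to 97.2 ± 3.38 CPM (SD, n = 3, log2 -0.31 ± 0.08, adjusted p = 0.0169). Kmt2c fell from 91.2 ± 1.63 to 76.5 ± 0.970 CPM (adjusted p = 0.0343). In each of them all IL-4 libraries lay under all untreated ones. Hdac7, a class IIa deacetylase, fell from 17.9, 18.2 and 14.8 to 13.0, 10.3 and 11.6 CPM (log2 -0.55 ± 0.14, adjusted p = 0.0167). Hdac11, the sole class IV deacetylase, fell from 1.00, 1.05 and 1.09 to 0.528, 0.275 and 0.0509 CPM, a low level with a wide error (log2 -1.89 ± 0.58, adjusted p = 0.0394). Kmt5b, Kdm2a and Kdm3a had log2 changes of -0.29, -0.28 and -0.34 (adjusted p = 0.0409, 0.0203 and 0.0466). Kmt2e kept its call without any 1 library. Kmt5b lost it without each of the 9 libraries in turn (adjusted p = 0.0585 to 0.108), Kmt2c without every library but untreated replicate 2 (0.0526 to 0.105), and Hdac11 without every library but IL-4 replicate 1 (0.0612 to 0.102). Kdm3a lost it without 7 of the 9, all but untreated replicate 2 and IL-4 replicate 3 (0.0754 to 0.151). Kdm2a lost it without untreated replicate 1 or 3 or IL-4 replicate 2 or 3 (0.0605 to 0.0740). Hdac7 lost it without untreated replicate 1 or IL-4 replicate 2 or 3 (0.0542 to 0.0630), and Kmt2a without untreated replicate 1 (0.0647) or IL-4 replicate 2 (0.0631).

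Kdm6b was not called with IL-4. It measured 14.0, 13.6 and 11.9 CPM untreated and 18.3, 13.1 and 18.1 CPM with IL-4. Replicates 1 and 3 of IL-4 were above every untreated library and replicate 2 was inside their range (log2 0.32 ± 0.15, adjusted p = 0.149). Without IL-4 replicate 2 it was called higher (log2 0.47, adjusted p = 0.0365), and also with a term in the fit marking untreated replicate 2 and IL-4 replicate 1 (0.0223). Its paralog Kdm6a (Utx) read 30.6 ± 4.24 and 26.7 ± 3.10 CPM (SD, n = 3 each, log2 -0.20 ± 0.13, adjusted p = 0.329). No demethylase was called higher with IL-4 and 3 of 17 were called lower, beside 12.9% and 12.0% of all genes tested.

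With IL-27, 7 of the 68 tested members rose against untreated cells and 15 fell, with 46 not called. That is 32.4% of the members, beside 29.2% of all genes tested (14.0% higher and 15.1% lower). The members' median log2 change was -0.07 and that of all genes 0.00. Higher were Dnmt3a, Dnmt3b, Hdac4, Kmt5a, Kmt2a, Kat6b and Kdm3a. Lower were Kmt5c, Hdac10, Hdac6, Ezh2, Hdac9, Kdm2b, Hdac7, Setd1b, Kdm3b, Kmt2d, Kat2a, Setdb1, Tet3, Setd7 and Kdm2a. At 1.5-fold or more, 2 higher and 8 lower members were left, and 19.6% of all genes. The untreated libraries are the same ones used for IL-4.

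Among the members called, the de novo DNA methyltransferases gained most with IL-27. Dnmt3a read 643, 709 and 646 CPM untreated and 992, 1070.1 and 1065 CPM with IL-27, the largest number of reads of any member. The groups were far apart, at 1.57-fold (log2 0.65 ± 0.09, adjusted p = 5.51e-04). Dnmt3b, at a far lower level, read 2.67, 2.44 and 2.12 against 3.9, 3.92 and 3.64 CPM (log2 0.66 ± 0.22, adjusted p = 0.0465). It did not overlap, yet the call was lost without any 1 of the untreated libraries (adjusted p = 0.0700, 0.0924 and 0.131 without replicates 1, 2 and 3), any 1 of the IL-27 libraries (0.116, 0.120 and 0.0976) or IL-4 replicate 3 (0.0654). Dnmt1 stayed at 154, 146 and 154 CPM with IL-27, inside the untreated range (log2 0.03 ± 0.13, adjusted p = 0.874).

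Hdac4, a class IIa deacetylase, rose from 19.3, 19.5 and 21.2 CPM to 30.5, 27.3 and 30.8 CPM (log2 0.57 ± 0.13, adjusted p = 0.00831), all IL-27 libraries lying above the untreated ones. Kmt5a (Set8), which adds the first methyl group to H4 lysine 20, rose from 107, 87.2 and 108 to 139, 144 and 142 CPM (log2 0.49 ± 0.11, adjusted p = 0.00618). The low untreated value is that of replicate 2. Kmt2a rose from 124, 122 and 116 to 146, 149 and 161 CPM (log2 0.34 ± 0.08, adjusted p = 0.00955). Kat6b went from 18.2 ± 1.37 to 24.9 ± 1.78 CPM (log2 0.46 ± 0.12, adjusted p = 0.0146) and Kdm3a, an H3K9 demethylase, from 58.1 ± 4.31 to 75.8 ± 0.163 CPM (SD, n = 3, log2 0.38 ± 0.11, adjusted p = 0.0248). Without IL-27 replicate 3 the calls of Kmt2a, Kat6b and Kdm3a were lost (adjusted p = 0.0606, 0.0642 and 0.0784). Kat6b also lost its call without untreated replicate 1 (0.0533) or 3 (0.0536) or IL-27 replicate 1 (0.0625), and Kdm3a without untreated replicate 2 (0.0681) or 3 (0.0615) or IL-27 replicate 1 (0.075) or 2 (0.0741).

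The largest decline with IL-27 was in Kmt5c, which with Kmt5b adds further methyl groups to H4 lysine 20. It read 36.2, 45.9 and 31.0 CPM untreated and 13.2, 14.6 and 15.1 CPM with IL-27. Every untreated library was above every IL-27 library by a wide gap, at a 2.64-fold difference (log2 -1.40 ± 0.20, adjusted p = 6.28e-04). Kmt5b was not called (58.7 ± 0.50 and 65.2 ± 3.41 CPM, adjusted p = 0.233). Ezh2 fell to 8.51, 7.89 and 7.19 CPM, under all untreated values (log2 -0.83 ± 0.16, adjusted p = 0.00359). Setdb1, an H3K9 methyltransferase, fell from 58.5, 60.3 and 61.3 to 44.0, 47.9 and 45.0 CPM (log2 -0.40 ± 0.08, adjusted p = 0.00470). Setd1b, an H3K4 methyltransferase, fell from 67.0, 66.2 and 57.5 to 40.4, 41.9 and 39.2 CPM (log2 -0.65 ± 0.13, adjusted p = 0.00488). Setd7 fell less than with IL-4, to 69.4, 82.3 and 75.5 CPM (log2 -0.31 ± 0.09, adjusted p = 0.0330), and lost its call without untreated replicate 1 (0.0986) or 3 (0.0817), IL-4 replicate 3 (0.0510) or IL-27 replicate 1 (0.137) or 3 (0.0938).

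Kmt2d, an H3K4 methyltransferase of enhancers, read 156, 192 and 131 CPM untreated and 115, 109 and 122 CPM with IL-27 (log2 -0.47 ± 0.16, adjusted p = 0.0489). The groups did not overlap, but the untreated spread was wide, with replicate 2 highest. Its call was lost without 6 of the 9 libraries taken singly: untreated replicate 1 (adjusted p = 0.0893) or 2 (0.131), IL-4 replicate 3 (0.0683), or IL-27 replicate 1 (0.126), 2 (0.149) or 3 (0.0929).

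Deacetylases made up 4 of the 15 declines. Of the 11 zinc-dependent HDACs, 1 was called higher and 4 lower, beside 14.0% and 15.1% of all genes tested. Hdac10, a class IIb enzyme known as a polyamine deacetylase, went from 7.34, 10.3 and 6.67 CPM to 4.01, 3.86 and 4.27 CPM (log2 -1.0 ± 0.23, adjusted p = 0.00905). Hdac6, the tubulin deacetylase of the same class, went from 21.1, 23.2 and 18.7 to 11.3, 11.6 and 12.4 CPM (log2 -0.84 ± 0.14, adjusted p = 0.00166). Hdac9 dropped to 2.92, 2.90 and 2.54 CPM (log2 -0.75 ± 0.18, adjusted p = 0.0120) and Hdac7 to 9.57, 10.8 and 11.5 CPM (log2 -0.68 ± 0.14, adjusted p = 0.00495). None of the 4 overlapped with untreated cells, which adds no support, as called members were picked that way. None of the 4 lost its call when 1 library was left out. Among class IIa genes Hdac4 rose, Hdac7 and Hdac9 fell, and Hdac5 was not called (135, 207 and 124 CPM untreated, 103, 103 and 101 with IL-27, adjusted p = 0.0742).

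Kdm2b, which demethylates H3K36 and brings a variant Polycomb complex to CpG islands, fell from 34.8, 37.6 and 30.9 to 18.1, 21.3 and 21.9 CPM with IL-27 (log2 -0.75 ± 0.11, adjusted p = 8.24e-04). Kdm3b, a paralog of Kdm3a, fell from 113, 120.1 and 113 to 74.3, 77.2 and 80.6 CPM (log2 -0.57 ± 0.08, adjusted p = 4.58e-04). Both were clearly separated from untreated cells. Kdm3b was lower and Kdm3a higher in the same libraries. Tet3 fell from 190.0, 195 and 184 to 142, 143 and 153 CPM (log2 -0.38 ± 0.08, adjusted p = 0.00666). Tet2 read 31.1, 32.2 and 33.9 CPM with IL-27, under all untreated values but not called (log2 -0.26 ± 0.09, adjusted p = 0.0576, or 0.0477 without IL-4 replicate 1). Kat2a fell to 27, 29.3 and 28.0 CPM (log2 -0.42 ± 0.12, adjusted p = 0.0279) and Kdm2a from 109 ± 2.13 to 93.2 ± 0.877 CPM (SD, n = 3, log2 -0.23 ± 0.07, adjusted p = 0.0429). Those last 2 calls were lost without any 1 of the IL-27 libraries (adjusted p = 0.0984, 0.0639 and 0.0838 for Kat2a and 0.131, 0.121 and 0.107 for Kdm2a), Kat2a's also without untreated replicate 2 (0.0730), and Kdm2a's also without untreated replicate 1 (0.116) or 3 (0.0966) or IL-4 replicate 2 (0.0509) or 3 (0.0680).

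**Figure D3:**
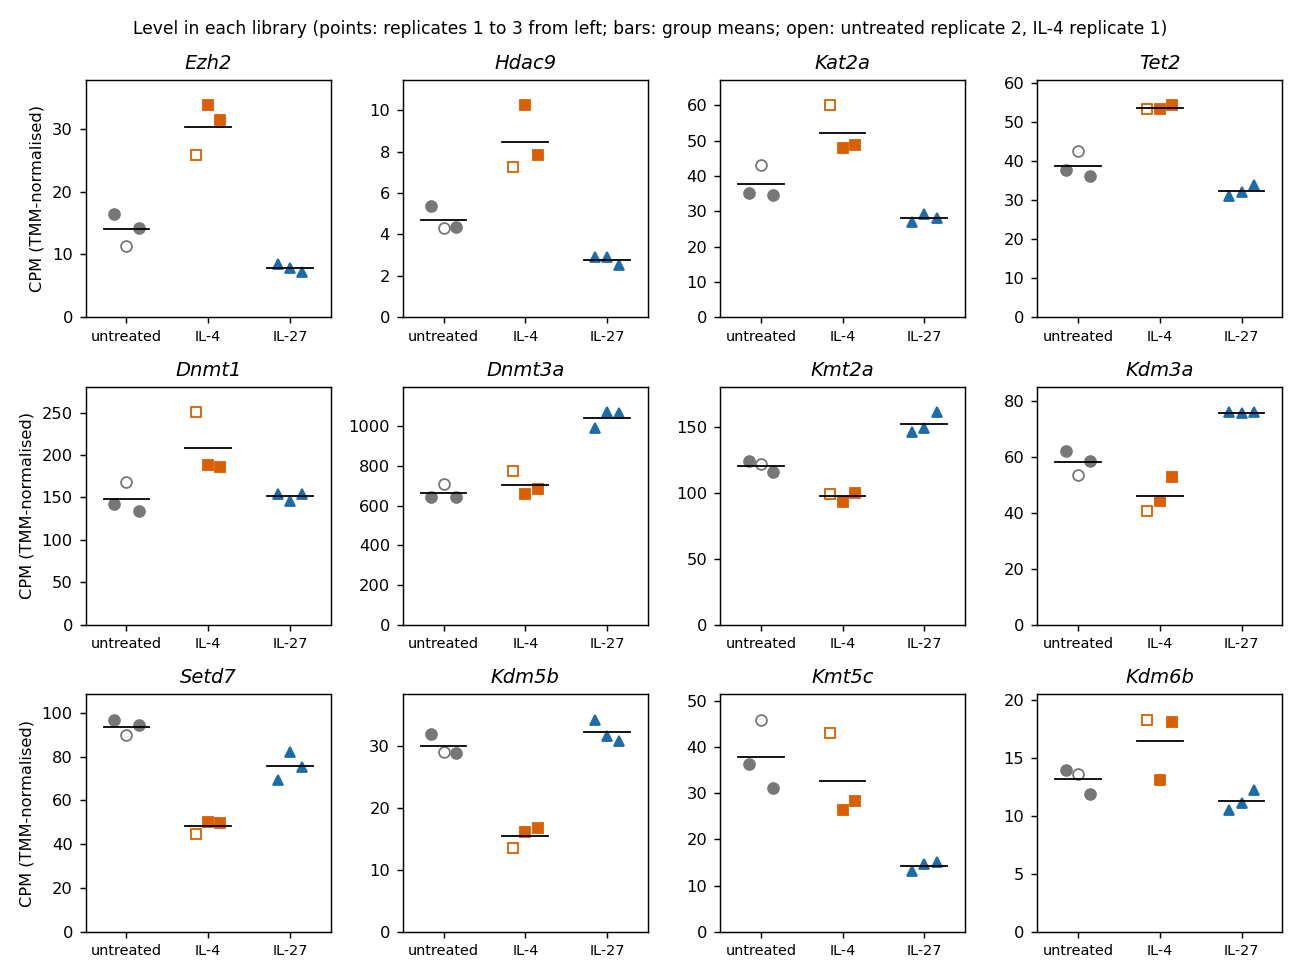
CPM (vertical axes, starting at 0) of 12 members in each of the 9 libraries, with bars at the group means and open symbols for untreated replicate 2 and IL-4 replicate 1. Ezh2 and Hdac9 are highest with IL-4 and lowest with IL-27, Dnmt3a is highest with IL-27, Setd7 and Kdm5b are lowest with IL-4, and Kdm6b overlaps between untreated and IL-4.

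Set directly against each other, the cytokine groups differed in 28 of the 68 tested members: 11 were higher with IL-27 and 17 higher with IL-4. This is 41.2%, against 39.8% of all genes tested (18.8% and 21.0%). The members' median log2 difference, IL-27 minus IL-4, was -0.11, and that of all genes 0.01. Left out singly, IL-4 replicate 2 moved the members' median to -0.17 and IL-27 replicate 1 to -0.07. It was -0.0029 without IL-4 replicate 1 and -0.0092 without that library and untreated replicate 2. Ezh2 differed most clearly among members, 3.85-fold lower with IL-27 (7.86 ± 0.658 against 30.3 ± 4.07 CPM, SD, n = 3 each, log2 -1.94 ± 0.16, adjusted p = 9.23e-06). Hdac9 was 3.03-fold lower (2.79 ± 0.210 against 8.45 ± 1.57 CPM, log2 -1.60 ± 0.18, adjusted p = 7.80e-05). Kdm5b was 2.08-fold higher with IL-27 (32.1 ± 1.83 against 15.4 ± 1.66 CPM, log2 1.06 ± 0.11, adjusted p = 3.82e-05). At 1.5-fold or more, 6 higher and 7 lower members were left, beside 27.3% of all genes.

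All 5 tested Dnmt and Tet genes were called in the direct comparison, beside 39.8% of all genes tested. Dnmt3a (log2 0.56 ± 0.09, adjusted p = 7.93e-04) and Dnmt3b (log2 1.04 ± 0.22, adjusted p = 0.00434) were higher with IL-27. Dnmt1 (log2 -0.46 ± 0.13, adjusted p = 0.0187), Tet2 (log2 -0.73 ± 0.09, adjusted p = 1.50e-04) and Tet3 (log2 -0.44 ± 0.08, adjusted p = 0.00189) were higher with IL-4. So the de novo enzymes stood on one side, and the maintenance enzyme and both Tet genes on the other. The Dnmt1 difference was lost without any 1 of the IL-27 libraries (adjusted p = 0.0531, 0.0691 and 0.0535).

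Of the remaining genes higher with IL-27, Kat6b (log2 0.97 ± 0.12, adjusted p = 1.19e-04), Kdm3a (0.73 ± 0.11, 5.17e-04), Kmt2a (0.64 ± 0.08, 1.20e-04) and Setd7 (0.65 ± 0.09, 3.68e-04) had the larger differences. Hdac4, Sirt2, Kmt5b and Ezh1 followed with log2 differences of 0.48, 0.45, 0.44 and 0.32. Higher with IL-4 were further Kmt5c (log2 -1.19 ± 0.20, adjusted p = 0.00106), Hdac10 (-1.15 ± 0.23, 0.00292), Kdm2b (-0.91 ± 0.11, 1.38e-04) and Kat2a (-0.90 ± 0.12, 2.79e-04). Kat14, Setdb1, Kdm6b, Hdac6, Kdm3b, Hdac3, Hdac1 and Kat7 lay between -0.58 and -0.31. Kdm6b, at 16.5 ± 2.96 CPM with IL-4 and 11.3 ± 0.860 with IL-27 (SD, n = 3), gave an adjusted p of 0.0162, which was lost without IL-4 replicate 3 (0.0596) or IL-27 replicate 1 (0.0650) or 2 (0.0546). The calls of Hdac4 (without IL-27 replicate 1, 0.0509, or 3, 0.0566), Hdac6 (without IL-27 replicate 1, 0.0535) and Hdac3 (without IL-27 replicate 3, 0.0521) were lost likewise.

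**Figure D4:**
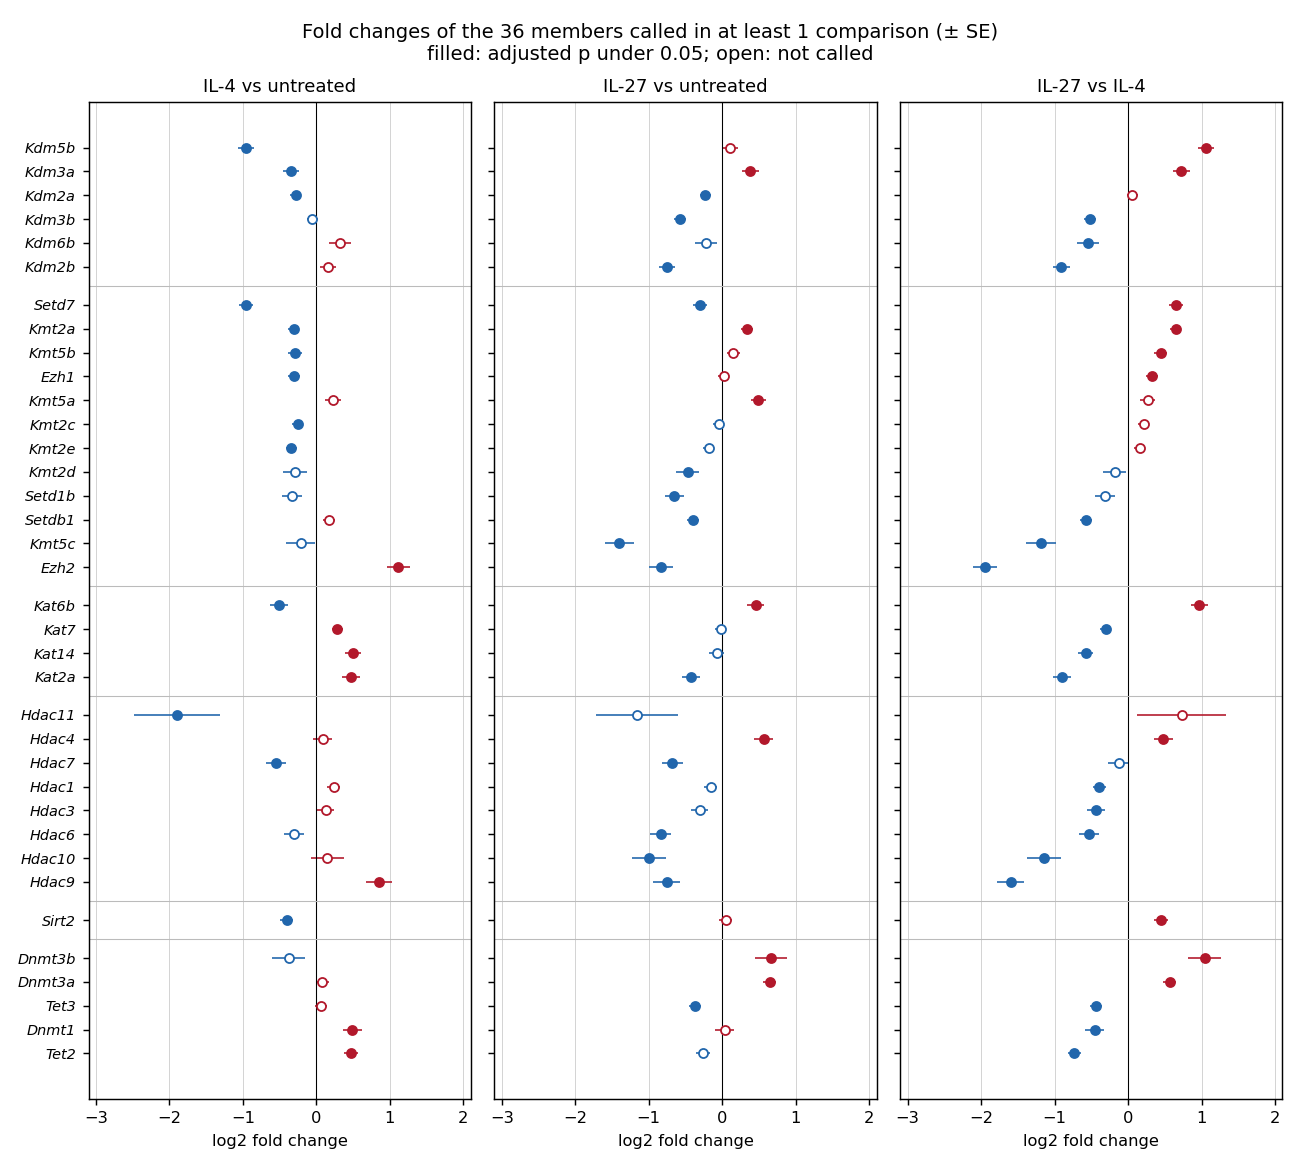
Log2 fold change with its SE (horizontal axes) of the 36 members called in at least 1 of the 3 comparisons, grouped by enzyme class, with filled symbols for an adjusted p under 0.05 and open symbols otherwise. Kat6b, Kdm3a and Kmt2a sit left of 0 with IL-4 and right of 0 with IL-27, and Ezh2, Hdac9 and Kat2a the reverse. The 3 comparisons share libraries.

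Side by side, 3 genes were lower with IL-4 and higher with IL-27 (Kat6b, Kdm3a, Kmt2a), each relative to the same untreated libraries, and Ezh2, Hdac9 and Kat2a were higher with IL-4 and lower with IL-27. Setd7, Hdac7 and Kdm2a were lower with both. Since the controls are shared, no test was made of how often the directions were opposite. No share over all genes was taken for these joint counts either, so they do not set the members apart from other genes. The direct comparison, which uses no untreated library for its means, called the first 3 genes higher with IL-27 (log2 0.97, 0.73 and 0.64) and the next 3 lower (log2 -1.94, -1.60 and -0.90).

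For the next count no share over all genes was taken, and a gene not called may still have changed. In none of the 3 comparisons were 32 of the 68 members called. They included 6 of 7 sirtuins: for Sirt1 the values were 25.3, 14.9 and 23.4 CPM untreated, 14.0, 31.2 and 25.04 with IL-4 and 32.8, 30.5 and 30.7 with IL-27. The IL-27 libraries were near each other, while untreated replicate 2 and IL-4 replicate 1 were the lowest of all 9 (IL-27 against untreated log2 0.56 ± 0.27, adjusted p = 0.147, or 0.0302 without IL-4 replicate 1). Sirt3 read 9.59 ± 1.88, 6.94 ± 1.28 and 6.57 ± 1.39 CPM in untreated, IL-4 and IL-27 cells. Its IL-27 libraries lay under all untreated ones without a call (log2 -0.54, adjusted p = 0.0790). Sirt3 was called lower with IL-27 when IL-4 replicate 1 was left out (0.0471). With the term marking untreated replicate 2 and IL-4 replicate 1, it was lower with IL-27 (0.0444) and with IL-4 (0.00867). Sirt6 (9.43 ± 3.60, 10.3 ± 2.72 and 8.36 ± 1.02 CPM) varied widely within groups, most in untreated cells. Kdm1a (Lsd1) read 50.4 ± 6.77, 44.4 ± 5.84 and 54.6 ± 3.53 CPM, Hdac2 31.2 ± 5.48, 42.3 ± 10.9 and 37.5 ± 0.931, and Kat2b (Pcaf) 44.0 ± 10.0, 40.0 ± 7.65 and 36.0 ± 1.10. Setd2, which methylates H3K36, stood at 95.1 ± 12.1, 80.4 ± 13.5 and 95.2 ± 5.60 CPM (all ± SD, n = 3 each). Many of these genes have a larger SD in untreated and IL-4 than in IL-27 cells.

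Leaving out both untreated replicate 2 and IL-4 replicate 1 left 2 libraries in each of those groups and raised the counts. For IL-4, 12 members were higher and 22 lower (24.0% and 22.3% of all genes). For IL-27, 12 were higher and 24 lower (24.2% and 25.3%), and in the direct comparison 17 and 21 (27.9% and 30.3%). The background rose along with the members, and all 20, 22 and 28 members called with every library were called again. With IL-4, 14 members were added: Hdac1, Hdac2 (log2 0.50 ± 0.08), Kdm7a (0.43 ± 0.06), Kmt5a and Setdb1, higher, and Hdac5 (-0.44 ± 0.06), Hdac6, Kdm1a, Kdm4b, Kmt2b, Kmt2d, Kmt5c, Setd1b and Setd2, lower. With IL-27, 14 were added: Dnmt1, Kdm4a, Setd5, Sirt1 (log2 0.36 ± 0.09) and Sirt2, higher, and Hdac3, Hdac5 (-0.35 ± 0.05), Kat2b, Kat6a, Kdm5a, Kdm7a, Kmt2e, Setd1a and Tet2, lower. The direct comparison gained Kdm1a, Kdm4a, Kmt2c, Kmt2e, Kmt5a and Setd5, higher with IL-27, and Hdac2, Kat2b, Kat6a and Kdm7a, lower. Kdm6b with IL-4 was still not called (log2 0.27 ± 0.14, adjusted p = 0.134). Dnmt1 was called higher with IL-27 by a small margin, both then and with the term (log2 0.16 with the term, adjusted p = 0.00451).

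The partners of these enzymes were 126 genes, without the cofactor supply and the S phase and mitosis lists given further on. Of 123 tested, 19 were higher and 11 lower with IL-4, 11 and 25 with IL-27, and 16 and 31 with IL-27 against IL-4. As shares these are 24.4%, 29.3% and 38.2%, each close to the background of its comparison. Among the 9 partners of Ezh2 in PRC2, 3 rose with IL-4 and 1 fell, 4 fell with IL-27, and in the direct comparison 1 was higher and 4 were lower with IL-27. Rbbp7, a histone-binding subunit, averaged 89.5 CPM untreated, 146 with IL-4 and 68.8 with IL-27 (log2 0.71 with IL-4, adjusted p = 1.22e-04, and -0.38 with IL-27, adjusted p = 0.00425). Jarid2, which helps recruit the complex, rose from 20.1 to 30.8 CPM with IL-4 and fell to 15.2 with IL-27. Phf19 fell from 6.04 to 1.17 CPM with IL-27 (log2 -2.37 ± 0.24, adjusted p = 7.07e-05), and Phf1 fell with both cytokines, from 24.0 to 10.1 and 14.99 CPM.

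For the 18 PRC1 subunits the counts were 1 higher and 2 lower with IL-4, 2 and 3 with IL-27 and 6 and 2 in the direct comparison. Cbx7, a chromodomain subunit that reads H3K27 methylation, fell from 14.4 CPM to 5.74 with IL-4 and 4.98 with IL-27. Cbx6 fell with IL-27 from 17.3 to 4.69 CPM (log2 -1.88 ± 0.15, adjusted p = 1.28e-05), while it averaged 16.5 CPM with IL-4. The 10 partners of the H3K4 methyltransferases (COMPASS) gave 1 higher and 0 lower with IL-4 and 1 and 4 with IL-27. Of them, Dpy30 averaged 15.4, 21.7 and 11.9 CPM in untreated, IL-4 and IL-27 cells and was called in all 3 comparisons. Among 24 subunits of HDAC corepressor complexes 0 rose and 1 fell with IL-4, and 1 rose and 4 fell with IL-27. The one lowered by IL-4 was Chd3, from 163 to 83.0 CPM (160 with IL-27). With IL-27, Chd4, the main remodelling ATPase of the NuRD complex, fell from 572 to 340 CPM (log2 -0.75 ± 0.08, adjusted p = 1.16e-04), and Sap30, a Sin3 complex subunit, rose from 28.6 to 53.2 CPM (log2 0.89 ± 0.10, adjusted p = 1.02e-04).

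Beside the DNA methyltransferases, 11 partner genes were tested, of which 1 rose and 3 fell with IL-4 and 2 rose and 1 fell with IL-27. Uhrf1, which brings Dnmt1 to newly replicated DNA, went from 22.5 to 85.9 CPM with IL-4 (log2 1.93 ± 0.17, adjusted p = 3.27e-05) and to 11.8 CPM with IL-27 (log2 -0.93 ± 0.17, adjusted p = 0.00222). The stress-inducible Gadd45a went the other way, from 80.9 to 31.9 CPM with IL-4 and 146 with IL-27, and Gadd45g likewise, from 59.3 to 32.2 and 106 CPM. Other lysine methyltransferases gave 6 higher and 1 lower of 16 with IL-4 and 0 and 4 with IL-27. Suv39h1, an H3K9 methyltransferase, rose from 26.8 to 36.4 CPM with IL-4 and fell to 17.6 with IL-27, and Ehmt2 (G9a) fell from 242 to 138 CPM with IL-27. Arginine methyltransferases gave 3 higher and 0 lower of 8 with IL-4 and 2 and 0 with IL-27, Prmt3 rising in both, from 14.3 to 25.9 and 23.2 CPM. Hr (Hairless), a JmjC-domain protein, rose from 1.88 to 7.07 CPM with IL-4 (log2 1.91 ± 0.22, adjusted p = 2.03e-04) and fell to 0.895 with IL-27.

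Other acetyltransferases gave 2 higher and 1 lower of 8 with IL-4 and 0 and 2 with IL-27. Hat1, which acetylates newly made histone H4, rose from 25.6 to 49.3 CPM with IL-4, and Ep300 fell from 198 to 158 CPM with IL-27 (log2 -0.32 ± 0.10, adjusted p = 0.0411). The 9 acetyl-lysine readers gave 0 and 1 with IL-4 and 1 and 1 with IL-27, where Brd2 rose from 279 to 340 CPM. Among 15 genes that supply cofactors, 3 rose and 2 fell with IL-4, and 3 rose and 5 fell with IL-27. Idh1, which makes the 2-oxoglutarate that demethylases and Tet enzymes use, fell from 358 to 236 CPM with IL-4 and 131 with IL-27. Nampt, the rate-limiting enzyme of the NAD salvage on which sirtuins draw, rose from 165 to 322 CPM with IL-27 (log2 0.97 ± 0.17, adjusted p = 0.00179).

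S phase and mitosis genes were listed with earlier results of these data known. All 16 listed rose with IL-4 (median log2 1.246), beside 12.9% of all genes tested. With IL-27, 11 fell and 0 rose (median -0.90), beside 15.1% and 14.0% of all genes. All 16 were lower with IL-27 than with IL-4 (median -2.62), beside 21.0% of all genes. Top2a averaged 110 CPM untreated, 224 with IL-4 and 24.7 with IL-27, and Mcm6 59.1, 162 and 45.2 CPM. Ezh2, Dnmt1 and Uhrf1 are known to be higher in dividing cells. The part of cell division in their values was not tested.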

How the data were processed

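RNA of 9 libraries was sequenced. Per the submitters' processing notes, fastp, HISAT2 and HTSeq were used with build GRCm39. Not given in the sources used here are versions, the strand setting and how shared reads were handled, so overlapping and antisense genes could not be separated. The authors deposited raw counts per gene and FPKM values. The FPKM values imply whole gene lengths (within 1e-04 bases for 100% of values). From the counts, edgeR 4.0.16 (R 4.3.3) was run: TMM factors, filterByExpr with a minimum count of 10, 1 quasi-likelihood fit over all 9 libraries, Benjamini-Hochberg adjustment over 12587 genes. The SE of a log2 change is its size divided by the square root of F. FPKM served for levels between genes only. DESeq2 1.42.0, other normalizations, filters and left-out libraries were alternatives. The code was tested on simulated data. There, 2% to 8% of 1.25-fold, 20% to 32% of 1.5-fold and 74% to 86% of 2-fold changes were called. The simulated fits made 103 to 115 calls, 3 to 8 of them false, against 3145 to 5008 calls in the data. With so few genes changed, the adjusted p was a stricter cutoff there, so these shares do not carry over to the data.

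Members, enzyme classes and partner lists were chosen with earlier results of these data known. Named were up to 25 called members per comparison without overlap between groups, smallest p first, a panel of enzymes whatever their result, and up to 4 called genes of each partner list. Promoters come from RefSeq, GRCm38.p6, a build other than that of the counts. Transcript GC was taken from GENCODE M21.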

Additional observations from a re-analysis of the deposited data

How the results depend on the processing

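The counts of members higher and lower moved by less than 1.5 times with DESeq2 size factors, library size alone, DESeq2, no filter and a filter of CPM over 1 in 3 libraries. For IL-4 against untreated, fitting these groups alone gave 4 higher and 6 lower. Leaving out untreated replicate 2 and IL-4 replicate 1 together gave 12 and 22 with IL-4, 12 and 24 with IL-27, and 17 higher in the direct comparison. A term marking both gave 13 and 26, 12 and 25, and 18. Asking for 1.5-fold left 2 and 3 with IL-4, 2 and 8 with IL-27, and 6 and 7 in the direct comparison. With 1 library left out at a time, the counts ranged from 4 to 9 higher and 5 to 15 lower with IL-4, from 3 to 9 higher and 11 to 19 lower with IL-27, and from 10 to 14 and 14 to 18 in the direct comparison. The cause was not tested. With the replicate number as a block, 6 members were higher and 5 lower with IL-4, 5 and 11 with IL-27, and 11 and 17 in the direct comparison. Deviations of same-numbered untreated and IL-4 libraries correlated at -0.79, -0.81 and 0.68. These values cannot decide if the shared numbers pair the libraries, since the library that stands apart carries number 2 in one group and 1 in the other. Library size alone shifted the median of all genes to 0.03, -0.02 and -0.06 log2.

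Sign changes touched members without a call only, here in log2 values. With IL-4, Hdac4 was -0.0681 without both libraries. With 1 library left out at a time, Hdac4 ranged from -0.0525 to 0.183, Sirt1 from -0.117 to 0.406, Sirt6 from -0.111 to 0.462, Kat2b from -0.312 to 0.0118 and Setdb2 from -1.29 to 1.65. With IL-27, Setd2 was -0.0259 with library size alone, -0.00862 without the filter, -0.00489 with these groups alone, -0.00265 with the replicate block, -0.0986 without both libraries and -0.115 with their term, and -0.0982 to 0.0858 with 1 left out. Sirt6 was 0.159 without both libraries, 0.125 with their term and -0.395 to 0.159 with 1 left out. Likewise Kdm6a ranged from -0.180 to 0.00697, Ezh1 from -0.00903 to 0.0555 and Dnmt1 from -0.0347 to 0.129. In the direct comparison Sirt3 was 0.0762 without both libraries, 0.0886 with their term and -0.254 to 0.0822 with 1 left out. Low counts limit Setdb2, Hdac11, Dnmt3b and the 3 untested genes.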
